A study of Homo sapiens with 12 samples.

Results

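NRF2, encoded by NFE2L2, its inhibitor KEAP1 and 7 genes known as NRF2 targets were followed across 2 human glioma cell lines. The targets were NQO1, TXNRD1, SRXN1, OSGIN1, PGD, TALDO1 and ME1. The 9 genes were taken by symbol from the 58302 genes of the deposited table, where each symbol stands once. Polyadenylated RNA was sequenced in 12 libraries, 3 for each of 4 groups. The groups were U251 cells given artesunate at 180 µM, U251 control cells, U87 cells given artesunate at 24.08 µM, and U87 control cells. Artesunate, a derivative of the antimalarial artemisinin with a peroxide bridge, was given for 24 h, and the labels place every sample at day 9. The control label names medium alone, and a solvent control is not stated. Line and dose changed together and cannot be told apart. The labels do not say that replicates were separate cultures, so p-values measure the spread between libraries, which may be technical. The labels call the drug artesunate, while the extraction text names artemisinin.

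NRF2 is a transcription factor that KEAP1 holds in the cytoplasm and presents to a CUL3 ubiquitin ligase for degradation. When reactive compounds modify cysteines of KEAP1, NRF2 escapes, enters the nucleus, pairs with small MAF proteins and binds antioxidant response elements. Its targets include enzymes that use NADPH to reduce quinones and oxidised thioredoxin, and enzymes that make NADPH from glucose or malate. In glioma, as in other tumours, NRF2 is known for its part in resistance to oxidative damage. Control is largely exerted on the protein, which RNA libraries do not measure.

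NRF2 recognises the antioxidant response element, so its core, TGACNNNGC read on either strand, was looked for in the RefSeq promoter windows of the members (GRCh38.p14). Each window has 300 bases, 250 before and 50 from the start site on, and the start site is base 0. The members had 12 windows, and 5 windows of 4 members held the core, while 13.347% of all 35116 windows did. These 5 are shown because they hold the core, and binding of NRF2 to them was not measured. Capitals mark the core, 5′ to 3′, in the direction of the gene.
ME1 (chr6:83431002-83431301, minus strand): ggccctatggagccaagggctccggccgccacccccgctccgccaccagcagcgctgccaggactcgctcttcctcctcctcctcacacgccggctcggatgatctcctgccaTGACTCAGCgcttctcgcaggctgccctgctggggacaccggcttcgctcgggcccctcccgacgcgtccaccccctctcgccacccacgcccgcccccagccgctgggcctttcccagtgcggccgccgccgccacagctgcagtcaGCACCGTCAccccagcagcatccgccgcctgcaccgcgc
PGD (chr1:10398814-10399113, plus strand): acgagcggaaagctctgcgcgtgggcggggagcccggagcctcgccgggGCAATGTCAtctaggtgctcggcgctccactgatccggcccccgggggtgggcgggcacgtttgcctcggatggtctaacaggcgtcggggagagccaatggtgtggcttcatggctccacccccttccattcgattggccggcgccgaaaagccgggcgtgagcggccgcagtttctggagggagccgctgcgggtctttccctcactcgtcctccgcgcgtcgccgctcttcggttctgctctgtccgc
TXNRD1, upstream start (chr12:104215529-104215828, plus strand): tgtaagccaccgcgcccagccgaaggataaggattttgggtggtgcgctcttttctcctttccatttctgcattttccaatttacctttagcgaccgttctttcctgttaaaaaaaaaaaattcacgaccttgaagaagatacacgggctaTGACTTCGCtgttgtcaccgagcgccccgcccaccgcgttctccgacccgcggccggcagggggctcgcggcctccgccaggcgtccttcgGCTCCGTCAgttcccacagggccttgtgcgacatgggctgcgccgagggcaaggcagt
TXNRD1, downstream start (chr12:104286782-104287081, plus strand): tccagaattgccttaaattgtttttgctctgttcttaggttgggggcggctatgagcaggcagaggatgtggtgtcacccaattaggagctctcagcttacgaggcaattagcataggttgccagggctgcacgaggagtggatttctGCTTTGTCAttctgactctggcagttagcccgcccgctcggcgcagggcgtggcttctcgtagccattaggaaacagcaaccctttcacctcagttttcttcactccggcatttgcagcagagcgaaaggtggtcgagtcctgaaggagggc
KEAP1, one of its windows (chr19:10502722-10503021, minus strand): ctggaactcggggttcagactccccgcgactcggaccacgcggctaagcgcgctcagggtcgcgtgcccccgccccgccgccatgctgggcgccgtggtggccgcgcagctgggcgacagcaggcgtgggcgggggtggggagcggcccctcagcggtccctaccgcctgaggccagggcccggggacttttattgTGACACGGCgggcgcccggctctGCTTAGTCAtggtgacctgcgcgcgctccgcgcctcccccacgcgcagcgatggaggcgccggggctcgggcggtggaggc

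In ME1 the forward match lay at bases -137 to -129 from the start and extended to TGACTCAGC, a form found in 0.561% of all windows. That match also holds the AP-1 motif TGACTCA, which 4.949% of windows held and which OSGIN1 had at -97 to -91. A reverse match in ME1 lay at 11 to 19. ME1 itself gave almost no reads in these libraries. TXNRD1 had a forward match at -99 to -91 and a reverse match at -8 to 0 in its upstream window, and a reverse match at -102 to -94 in its downstream window. The PGD match lay at -201 to -193, and KEAP1 had matches at -54 to -46 and -31 to -23. No TGACNNNGC was found in the windows of NFE2L2, NQO1, SRXN1, OSGIN1 or TALDO1. A match is a description of letters in these windows only.

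Library totals ran from 13631985 to 17314284 counts. Of the 35237 genes with a count, 17150 passed a filter on low counts and were tested with edgeR's quasi-likelihood test over all 12 libraries, with Benjamini-Hochberg adjustment. A gene was called at an adjusted p below 0.05, and levels are CPM, counts scaled to the library total and its TMM factor. ME1 failed the filter, so 8 of 9 members were tested. Log2 fold changes followed transcript GC content, with Spearman's rho of 0.41 in U251 and -0.63 in U87 over 17089 genes, a description across genes that are not independent. U87 artesunate libraries were less alike than the others, with a mean r to their group of 0.973 to 0.978, against 0.985 to 0.986 elsewhere. Of the glial and glioma markers, VIM, CD44 and TNC were at group means of 292 CPM or more in both lines and AQP4 was at 0 in every library. TNC averaged 658 CPM in U87 artesunate and 1163 CPM in U87 controls. S100B and ALDH1L1 averaged at most 0.653 CPM in any group. FABP7 averaged 15.8 to 17.0 CPM in U251 and at most 0.465 CPM in U87. OLIG2 averaged at most 0.146 CPM in U251 and 3.16 to 7.38 CPM in U87. CHI3L1 averaged 0 CPM in U251 and 20.2 to 20.6 CPM in U87. SOX2 averaged 246 CPM in U251 artesunate and 249 CPM in U251 controls and was at 0 in U87. GFAP averaged 57.4 CPM in U251 artesunate and 67.1 CPM in U251 controls, and 1.66 CPM in U87 artesunate and 1.01 CPM in U87 controls. NES averaged 11.9 CPM in U87 artesunate and 70.8 CPM in U87 controls. The summed level of 5 fibroblast markers was 655 to 981 CPM in U87 artesunate and 2099 to 2219 CPM in U87 controls, carried by COL1A1 and COL1A2, while DCN averaged 123 CPM in U87 artesunate and 77.6 CPM in U87 controls. That of 7 leukocyte markers, with CD3E and AIF1 at 0, was 31.0 to 60.4 CPM in U87 artesunate and 73.4 to 115 CPM in U87 controls. CD68 and CSF1R carried it, at means of 33.4 and 7.31 CPM in U87 artesunate and 74.3 and 20.5 CPM in U87 controls. PTPRC averaged 0.110 CPM in U87 artesunate and 0.0994 CPM in U87 controls, both under the level of 3 counts in a library. In U251 the 4 endothelial markers summed to 59.2 to 67.8 CPM with artesunate and 94.4 to 99.7 CPM in controls. KDR carried this sum, with means of 60.7 CPM with artesunate and 95.5 CPM in controls. CDH5 averaged 1.21 CPM with artesunate and 0.902 CPM in controls. PECAM1 averaged 0.105 CPM with artesunate and 0.0429 CPM in controls. Both PECAM1 means were under the level of 3 counts in a library (0.168 to 0.219 CPM), so no direction is read from them. The leukocyte markers in U251 summed to 3.95 to 6.66 CPM with artesunate and 1.06 to 3.16 CPM in controls. CD68 carried that sum, while CSF1R averaged 0.385 CPM with artesunate and 0.677 CPM in controls. In U87 the endothelial markers summed to 19.8 to 29.1 CPM with artesunate and 37.7 to 42.3 CPM in controls. KDR carried this sum too, with means of 23.0 CPM with artesunate and 37.8 CPM in controls. PECAM1 and VWF averaged 1.15 and 0.994 CPM with artesunate, against 0.970 and 0.888 CPM in controls. The 5 epithelial markers summed to 2.40 to 5.33 CPM in U87 artesunate and 5.996 to 7.06 CPM in U87 controls, and the 5 neuronal markers, GRIN1 among them at 0, to 55.6 to 64.1 CPM in U87 artesunate and 33.7 to 48.7 CPM in U87 controls, while SNAP25 among them averaged 12.5 CPM in U87 artesunate and 22.5 CPM in U87 controls. The part of these shifts in the results was not tested.

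Artesunate raised 4 of the 8 tested members in U251 and 6 of the 8 in U87, and lowered none in either line. Over all tested genes 8.34% were called in U251 (4.09% higher, 4.26% lower) and 58.3% in U87 (29.2% higher, 29.2% lower). NQO1, SRXN1 and PGD rose in both lines, OSGIN1 in U251, and NFE2L2, TXNRD1 and TALDO1 in U87. The median log2 fold change of the tested members was 0.53 in U251 and 1.33 in U87, and that of all tested genes was -6.2e-05 in U251 and 0 in U87. All artesunate libraries lay above all controls for 7 members in U251, where 18.5% of genes did so, and for 6 members in U87, where 31.2% did. With 1 library left out the number of called members was 4 to 6 in U251 and 6 to 7 in U87. The 7 in U87 arose without artesunate library 2, where OSGIN1 was called lower. When only the libraries compared were fitted, 6 members were called in U251 and 6 in U87. That fit called 2892 of 15286 tested genes in U251 and 9096 of 15442 in U87. The lower count of 4 in U251 thus depends on the fit over all 12 libraries. With a correction for the GC content and length of transcripts, described below, 8 members were called in U87, KEAP1 and OSGIN1 among them as higher. That correction called 7787 of 17150 tested genes in U87. Because these are bulk RNA libraries, fewer cells of a kind and less RNA per cell cannot be told apart.

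**Figure D1:**
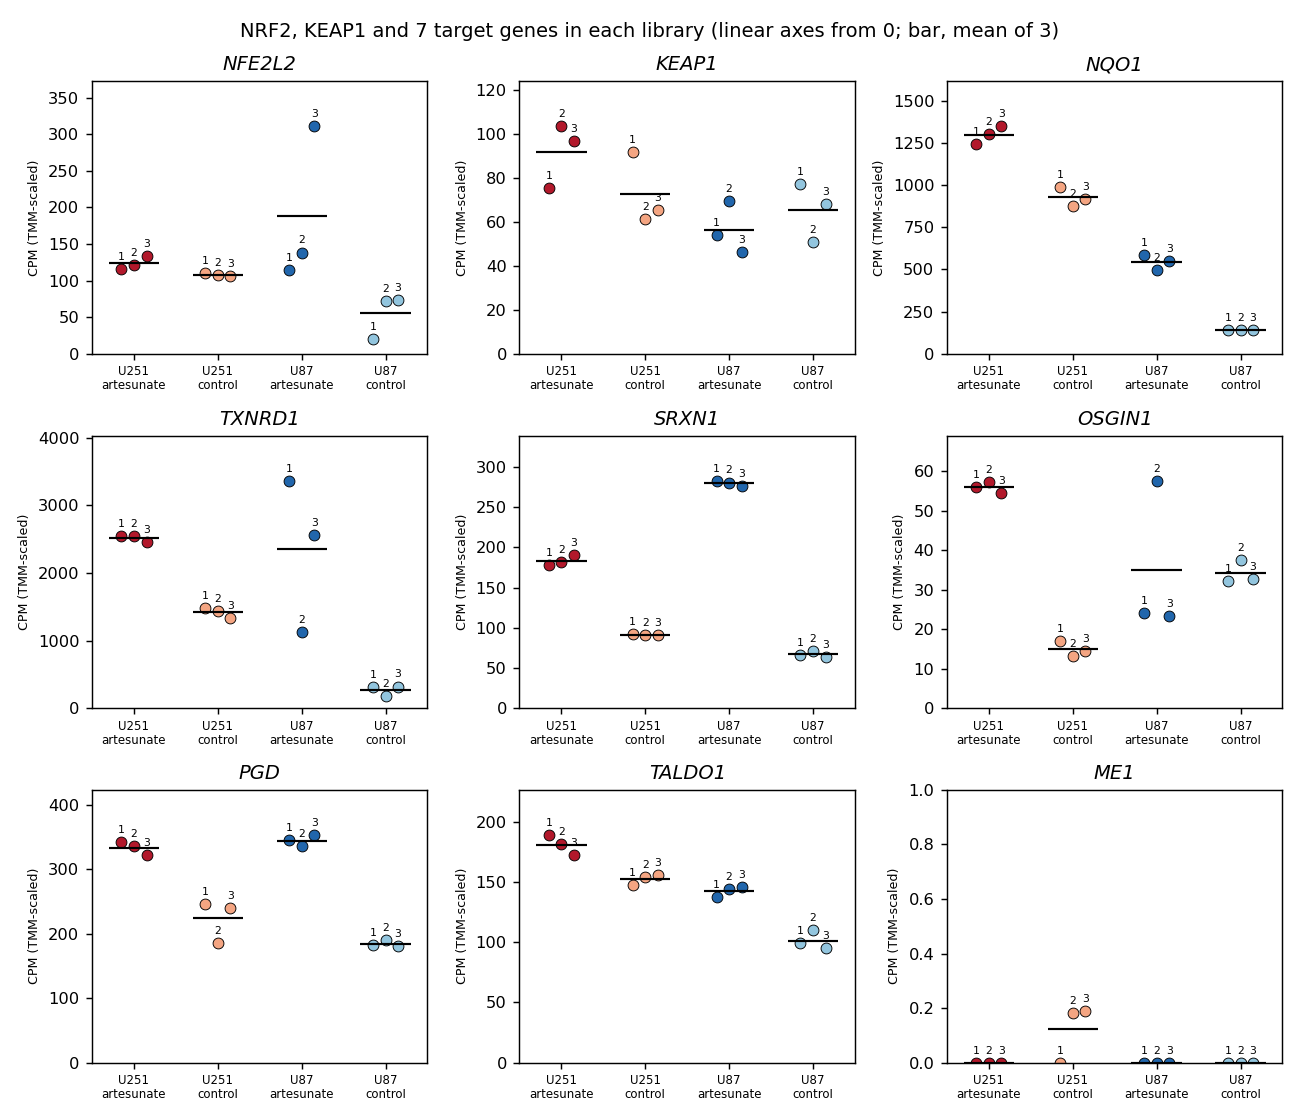
CPM in each library for the 9 members (vertical linear axes that start at 0; numbered points are the 3 libraries of a group, lines their mean), with artesunate left of control in each line. NQO1 and SRXN1 lie apart from their controls in both lines, and ME1 lies at or near 0. The points of NFE2L2, TXNRD1 and OSGIN1 scatter more in U87 artesunate than in the other groups.

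NFE2L2 rose in U87 and was not called in U251. The gene (ENSG00000116044, GRCh38 chr2:177227595-177392697, minus strand) had 116, 121 and 134 CPM in U251 artesunate, against 109.6, 107 and 106 CPM in U251 controls. All 3 artesunate libraries were above all controls, but the log2 fold change of 0.20 ± 0.43 (SE) had an adjusted p of 0.84. In U87 it had 115, 138 and 311 CPM with artesunate, against 20.3, 72.6 and 73.0 CPM in controls. The U87 libraries did not overlap, yet they were uneven, as artesunate library 3 stood high and control library 1 stood low. The transcript rose by a log2 fold change of 1.77 ± 0.44 (SE, adjusted p = 0.0045). Without artesunate library 3 the log2 fold change was 1.18 (adjusted p = 0.027), and without control library 1 it was 1.36. Over 22 alternative settings the adjusted p ran from 9.3e-05 to 0.031. NFE2L2 shares exon bases with other genes: AC019080.1 on the same strand covers 17.6% of them and had at most 10.2% of the NFE2L2 count, and AGPS on the other strand, with up to 4563 counts in a library, shares 54 bases. The strand setting of the counting is not given in the sources used here.

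KEAP1 (ENSG00000079999, chr19:10486120-10503741, minus strand), the adaptor that marks NRF2 for degradation, was not called in either line. It had 75.1, 103 and 96.6 CPM in U251 artesunate, against 91.7, 61.3 and 65.2 CPM in U251 controls, and these overlapped. The U87 values were 53.9, 69.2 and 46.0 CPM with artesunate, against 77.1, 50.6 and 68.0 CPM in controls, and these overlapped as well. Its log2 fold change was 0.33 ± 0.21 in U251 (SE, adjusted p = 0.37) and -0.21 ± 0.21 in U87 (SE, adjusted p = 0.41). When each library's trend of counts over the GC content and length of transcripts was taken out, called the GC adjustment from here on, the U87 value turned to 0.82 (adjusted p = 0.0077), while the adjusted p over all 22 alternatives ran from 0.0077 to 0.82. The longest KEAP1 transcript has 60.3% GC.

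NQO1 (ENSG00000181019, chr16:69706996-69726951, minus strand) encodes the quinone reductase that takes electrons from NADH or NADPH and is a standard readout of NRF2. It had 1246, 1303 and 1349.6 CPM in U251 artesunate, against 988, 877 and 920.3 CPM in U251 controls. In U87 it had 587, 494 and 549 CPM with artesunate, against 142, 142 and 143 CPM in controls. The groups were fully apart in both lines. NQO1 rose by a log2 fold change of 0.49 ± 0.08 in U251 (SE, adjusted p = 0.0027) and 1.94 ± 0.08 in U87 (SE, adjusted p = 1.6e-08). The antisense gene AC092115.2 overlaps 17.7% of its exon bases and had at most 7 counts in a library.

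Of the thioredoxin enzymes, TXNRD1 rose in U87 and SRXN1 rose in both lines. TXNRD1 (ENSG00000198431, chr12:104215779-104350305, plus strand) encodes cytosolic thioredoxin reductase, a selenoprotein that spends NADPH to keep thioredoxin reduced. It had 2550.4, 2549 and 2459.5 CPM in U251 artesunate, against 1482, 1437 and 1329.6 CPM in U251 controls, and the groups were apart. The U87 values were 3362, 1122 and 2568 CPM with artesunate, against 314, 179 and 319.98 CPM in controls. Artesunate library 2 and control library 2 were the low ones, and the groups were still apart. The U87 log2 fold change was 3.12 ± 0.34 (SE, adjusted p = 1.2e-05), the highest of the tested members in that line. In U251 the log2 fold change of 0.83 ± 0.32 (SE) had an adjusted p of 0.14 in the fit that pools the spread of both lines. TXNRD1 was called in U251 when U251 libraries alone were fitted (adjusted p = 0.00034) and without U87 artesunate library 2 (adjusted p = 0.015), and the adjusted p over 22 alternatives ran from 0.00034 to 0.30.

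SRXN1 (ENSG00000271303, chr20:646615-653370, minus strand) encodes sulfiredoxin, which repairs overoxidised peroxiredoxins. It had 178, 182 and 190.4 CPM in U251 artesunate, against 92.8, 90.5 and 90.4 CPM in U251 controls. In U87 it had 283, 281 and 276 CPM with artesunate, against 66.3, 71.3 and 63.5 CPM in controls. The groups were apart in both lines and the spread was small. SRXN1 rose by a log2 fold change of 1.01 ± 0.07 in U251 (SE, adjusted p = 8.7e-06) and 2.06 ± 0.07 in U87 (SE, adjusted p = 7.1e-09). AL121758.1 lies on the same strand over 85.0% of its exon bases and had at most 1 count in a library.

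OSGIN1 (ENSG00000140961, chr16:83948282-83966332, plus strand) encodes an oxidative stress induced growth inhibitor. It had 56.0, 57.3 and 54.5 CPM in U251 artesunate, against 17.1, 13.2 and 14.5 CPM in U251 controls, with the groups apart. It rose there by a log2 fold change of 1.90 ± 0.29 (SE, adjusted p = 0.0024), the highest among tested members in U251. The U87 values were 24.2, 57.6 and 23.4 CPM with artesunate, against 32.2, 37.5 and 32.8 CPM in controls. Artesunate library 2 lay above the controls and the other two artesunate libraries below them. The U87 log2 fold change was 0.03 ± 0.28 (SE, adjusted p = 0.94). It was -0.53 without artesunate library 2 (adjusted p = 0.0022) and 1.34 with the GC adjustment (adjusted p = 2.8e-05), and over 22 alternatives the adjusted p ran from 2.8e-05 to 1. The longest OSGIN1 transcript has 63.4% GC, the highest of the 9 members.

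Of the enzymes around the pentose phosphate pathway, PGD rose in both lines. PGD (ENSG00000142657, chr1:10398592-10420144, plus strand) encodes 6-phosphogluconate dehydrogenase, which makes NADPH. It had 342, 336 and 322 CPM in U251 artesunate, against 246, 185 and 239 CPM in U251 controls. In U87 it had 345, 336 and 352 CPM with artesunate, against 182, 190.2 and 181 CPM in controls. The groups were apart in both lines, with U251 control library 2 the low one. The log2 fold change was 0.58 ± 0.10 in U251 (SE, adjusted p = 0.0040) and 0.90 ± 0.10 in U87 (SE, adjusted p = 1.1e-05).

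TALDO1 (ENSG00000177156, chr11:747329-765024, plus strand) encodes transaldolase, which returns pentose phosphates to glycolysis without making NADPH itself. It had 189, 182 and 173 CPM in U251 artesunate, against 148, 155 and 156 CPM in U251 controls. The U87 values were 138, 144 and 146 CPM with artesunate, against 99.3, 110.1 and 95.1 CPM in controls, and in both lines the groups were apart. The U87 log2 fold change was 0.49 ± 0.08 (SE, adjusted p = 0.00016), and 1.16 with the GC adjustment. The U251 value of 0.25 ± 0.08 (SE) missed the threshold with an adjusted p of 0.068. It was called in 3 of 22 alternatives: with DESeq2 (adjusted p = 0.015), with U251 libraries alone, and without U87 artesunate library 2. Over all 22 the adjusted p ran from 0.015 to 0.39.

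ME1 (ENSG00000065833, chr6:83210389-83431071, minus strand) encodes cytosolic malic enzyme, another source of NADPH. It had 0 counts in all U251 artesunate libraries, against 0, 3 and 3 counts in the U251 controls. It had 0 counts in all U87 artesunate and all U87 control libraries. A count of 0 allows up to 3 counts per library, which is 0.168 to 0.219 CPM, so no fold was computed. These limits cover counting error only.

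**Figure D2:**
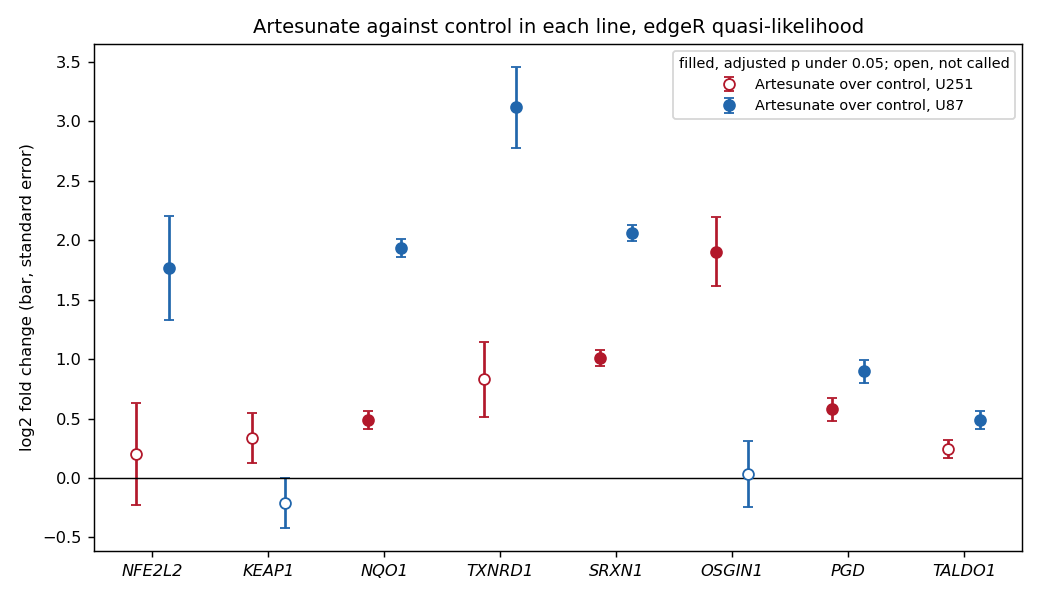
Log2 fold change of artesunate over control (vertical axis) in U251 and in U87 for the 8 tested members (points; bars are 1 SE; filled where the adjusted p is below 0.05). OSGIN1 stands at 1.90 in U251 and 0.03 in U87, while TXNRD1, SRXN1 and NQO1 stand higher in U87, at 3.12, 2.06 and 1.94, than in U251, at 0.83, 1.01 and 0.49.

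An interaction term asked whether the drug response differed between U251 and U87. Of the 8 tested members 4 differed, 1 with the higher value in U251 (OSGIN1) and 3 with the lower (NQO1, TXNRD1 and SRXN1), where 49.4% of all tested genes differed (24.1% with the higher value in U251, 25.3% with the lower). The difference in log2 fold change, U251 minus U87, was -2.29 ± 0.45 for TXNRD1 (SE, adjusted p = 0.0013). It was -1.45 ± 0.11 for NQO1 (SE, adjusted p = 3.1e-06) and -1.05 ± 0.10 for SRXN1 (SE, adjusted p = 9.4e-06). For OSGIN1 it was 1.87 ± 0.40 (SE, adjusted p = 0.0023), and with the GC adjustment 0.30 (adjusted p = 0.33, with 8.5e-07 to 0.34 over 21 alternatives). NFE2L2 missed the threshold at -1.56 ± 0.61 (SE, adjusted p = 0.0505), and was called in 6 of 21 alternatives (adjusted p 0.021 to 0.16), with values of -1.82 to -0.97 when 1 library was left out. PGD missed it at -0.32 ± 0.14 (SE, adjusted p = 0.069), TALDO1 at -0.25 ± 0.11 (SE, adjusted p = 0.075) and KEAP1 at 0.55 ± 0.29 (SE, adjusted p = 0.15). With the GC adjustment the differences of PGD (-0.68) and TALDO1 (-1.03) were called, and that of KEAP1 turned to -0.69, not called. Without U251 control library 1 the KEAP1 difference was 0.78 and called. All of these differences carry the difference in dose.

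**Figure D3:**
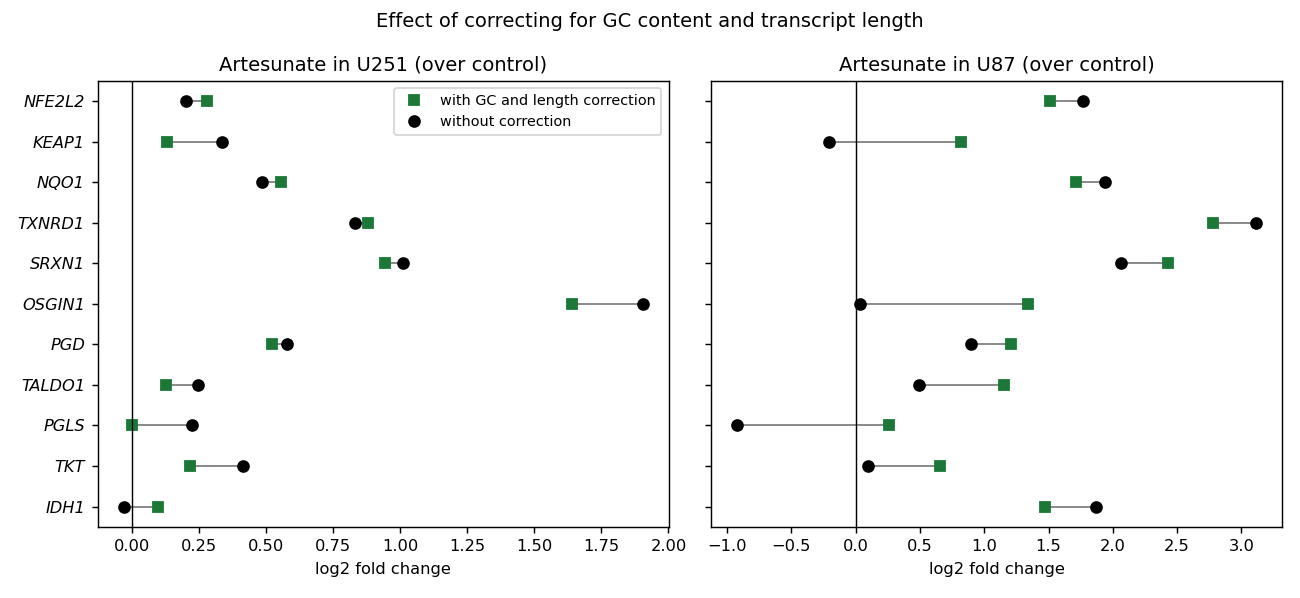
Log2 fold change of artesunate over control (horizontal axes) in U251 and in U87 for the 8 tested members and 3 genes of NADPH production, with the GC adjustment (squares) and without it (circles). In U87 the adjusted values of KEAP1 (0.82), OSGIN1 (1.34) and PGLS (0.26) lie above 0, against -0.21, 0.03 and -0.92 without it, while NQO1, TXNRD1, SRXN1, PGD and TALDO1 lie above 0 both ways.

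Control levels also differed between the lines. Of the 8 tested members 5 were higher and 1 was lower in U251 controls than in U87 controls, where 64.8% of all tested genes were called (32.5% higher and 32.3% lower). Libraries did not overlap for 5 higher members and 1 lower one, where 36.6% and 37% of all tested genes were so. NQO1 had the largest of these values, with a log2 fold change of 2.71 ± 0.08 (SE, adjusted p = 1.3e-10), and TXNRD1 followed at 2.39 ± 0.33 (SE, adjusted p = 5.2e-05). TALDO1 was higher at 0.59 ± 0.08 (SE, adjusted p = 2.6e-05) and SRXN1 at 0.44 ± 0.07 (SE, adjusted p = 0.00011). PGD was higher at 0.28 ± 0.10 (SE, adjusted p = 0.025), with overlapping libraries and a call lost in 6 of 22 alternatives. OSGIN1 was lower in U251 controls at -1.19 ± 0.29 (SE, adjusted p = 0.0031). NFE2L2 did not pass at 0.96 ± 0.43 (SE, adjusted p = 0.070), nor did KEAP1 at 0.16 ± 0.21 (SE, adjusted p = 0.53). NFE2L2 was called in 4 of 22 alternatives (adjusted p 0.027 to 0.17), with values of 0.56 to 1.203 when 1 library was left out. KEAP1 was called in the 2 with the GC adjustment, at 0.54.

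With artesunate in both lines, 4 members were higher and 1 was lower in U251 than in U87, where 72.2% of all tested genes were called (36.3% higher and 35.9% lower). Libraries did not overlap for 3 higher members and 1 lower one, where 37.2% and 36.4% of all tested genes were so. NQO1 was higher in U251 artesunate at 1.26 ± 0.08 (SE, adjusted p = 3.7e-08), while SRXN1 was lower at -0.61 ± 0.07 (SE, adjusted p = 6.3e-06). KEAP1 was higher at 0.70 ± 0.21 (SE, adjusted p = 0.0097), TALDO1 at 0.34 ± 0.08 (SE, adjusted p = 0.0014) and OSGIN1 at 0.68 ± 0.28 (SE, adjusted p = 0.046). With the GC adjustment KEAP1 turned to -0.15 and TALDO1 to -0.13, neither called, and OSGIN1 to -0.41, which was called in the opposite direction. The OSGIN1 call was lost in 14 of 22 alternatives. TXNRD1 had 0.10 ± 0.31 (SE, adjusted p = 0.79), PGD -0.05 ± 0.10 (SE, adjusted p = 0.68) and NFE2L2 -0.60 ± 0.43 (SE, adjusted p = 0.22). Without U87 artesunate library 3 the NFE2L2 value was -0.018.

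Ordered by level, NQO1 and TALDO1 ran from U251 artesunate through U251 control and U87 artesunate to U87 control, with every neighbouring pair of groups apart. SRXN1 ran from U87 artesunate through U251 artesunate and U251 control to U87 control, also with each pair apart. For KEAP1 all neighbours overlapped. In TXNRD1 the only neighbouring groups that lay apart were the U87 controls and the U251 controls above them. In OSGIN1 they were the U251 controls and the U87 controls above them. Per kilobase of merged exons, NQO1 and TXNRD1 were the most abundant members in U251 artesunate, at mean CPM per kilobase of 399 and 376. In U87 controls PGD had the most at 62.3 CPM per kilobase, followed by NQO1 at 43.6 and TXNRD1 at 40.4. KEAP1 averaged 17.3 and NFE2L2 9.25 CPM per kilobase there. The order between genes depends on the length used. TXNRD1 has 6708 bases of merged exons, 4277 in its longest transcript, and 18142 as implied by the deposited FPKM.

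Other genes of the pathway were taken from lists chosen with earlier results of these data known. Of 18 tested NRF2 regulators, 2 rose and 0 fell in U251, and 13 rose and 2 fell in U87, where 4.09% of all tested genes were higher and 4.26% lower in U251, and 29.2% each way in U87. The list had median log2 fold changes of 0.20 in U251 and 0.81 in U87. SQSTM1, the autophagy adaptor p62 that binds KEAP1, rose in U251 (0.90 ± 0.18 SE, adjusted p = 0.0096) and in U87 (1.25 ± 0.18 SE, adjusted p = 9.0e-05). BACH1, a repressor at the same DNA elements, rose in U87 (1.80 ± 0.13 SE, adjusted p = 7.2e-07) and had 0.38 ± 0.13 in U251 (SE, adjusted p = 0.10), where the GC adjustment gave 0.52, past the threshold, and the effects differed by -1.42 ± 0.19 (U251 minus U87, SE, adjusted p = 8.7e-05). MAFF, a small MAF protein, rose in U251 (1.62 ± 0.45 SE, adjusted p = 0.047) and in U87 (1.34 ± 0.42 SE, adjusted p = 0.017), but the U251 call was lost in 16 of 22 alternatives and its libraries overlapped. The U87 call of MAFF was lost in 4 of 22, each with 1 U87 library left out. MAFG, another small MAF protein, rose in U87 (0.99 ± 0.36 SE, adjusted p = 0.035), where control library 1 had 24.1 CPM and the other controls 85.8 and 87.6 CPM, and without that library the log2 fold change was 0.59. Without U87 artesunate library 2 it was 0.73 and not called. The U87 call of MAFG was lost in 4 of 22 alternatives. In U251 MAFG had 0.60 ± 0.36 (SE, adjusted p = 0.35), with every artesunate library above every control. It was called there when U251 libraries alone were fitted (adjusted p = 0.0030). CUL3, the ligase scaffold, had 0.01 ± 0.11 in U251 (SE, adjusted p = 0.99) and rose in U87 (0.87 ± 0.12 SE, adjusted p = 5.2e-05), a call lost with the GC adjustment, where the value was 0.11. NFE2L1, the related factor NRF1, rose in U87 (0.66 ± 0.16 SE, adjusted p = 0.0044) and had 0.33 ± 0.16 in U251 (SE, adjusted p = 0.24).

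Of 35 further tested genes known as NRF2-controlled, 15 rose and 0 fell in U251, and 24 rose and 2 fell in U87, against 4.09% of all tested genes higher in U251 and 29.2% higher in U87. The list had median log2 fold changes of 0.37 in U251 and 1.08 in U87. GCLC, the catalytic subunit of the enzyme that starts glutathione synthesis, had 1.48 ± 0.12 in U251 and 2.31 ± 0.13 in U87 (SE). NMRAL2P, a pseudogene, had 1.66 ± 0.25 in U251 and 3.91 ± 0.30 in U87 (SE), and AKR1C1, an aldo-keto reductase, had 1.18 ± 0.09 in U251 and 2.40 ± 0.09 in U87 (SE). TRIM16L had 1.06 ± 0.20 in U251 and 2.31 ± 0.21 in U87 (SE). HMOX1, the heme oxygenase, rose by 2.69 in U251 and 1.62 in U87, and SLC7A11, which imports cystine, rose by 0.86 in U251 and 5.52 in U87. The adjusted p-values of these 6 were at most 0.0080 in U251 and 2.9e-06 in U87. Of the 2 that fell in U87, CBR3, a carbonyl reductase, fell by 1.64 (SE 0.17, adjusted p = 7.3e-06). ABCC3, an export pump, fell by 0.40 (adjusted p = 0.0079) and turned to 0.15 with the GC adjustment. All 6 genes named before CBR3 rose in both lines with every artesunate library above every control. Their effects differed between the lines: HMOX1 had the higher value in U251, by 1.07 ± 0.20 (SE, adjusted p = 0.0011), and the other 5 the higher value in U87, from SLC7A11 at -4.66 ± 0.21 (SE, adjusted p = 2.9e-07) to GCLC at -0.83 ± 0.17 (SE, adjusted p = 0.0019), U251 minus U87.

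**Figure D4:**
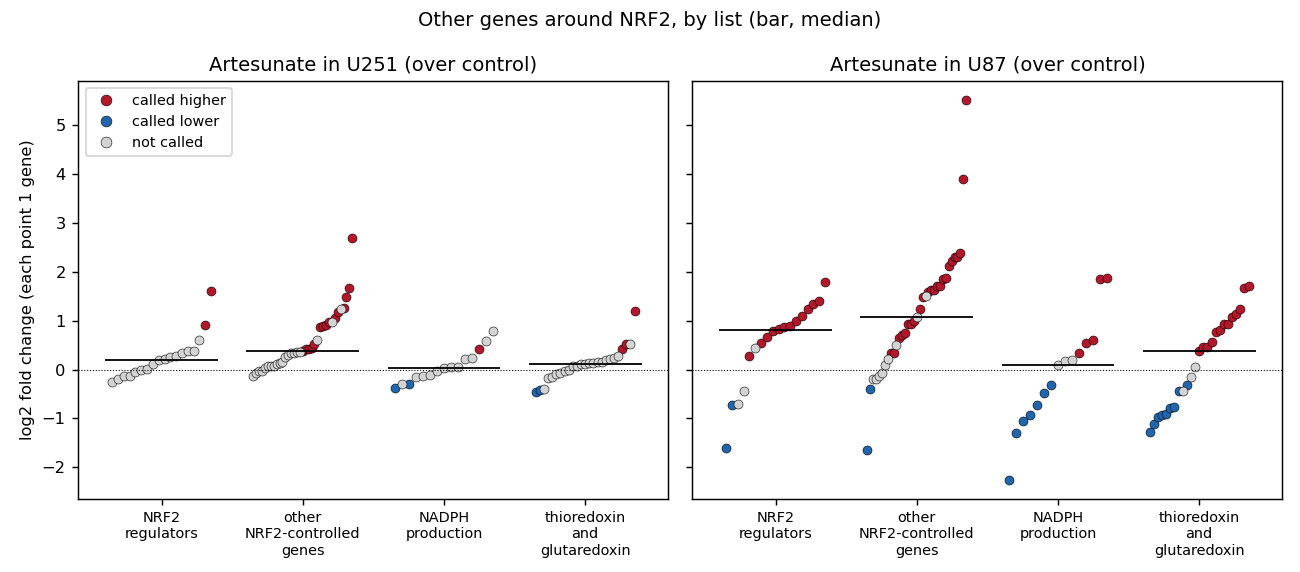
Log2 fold change of artesunate over control (vertical axis) for the tested genes of 4 lists in U251 and in U87 (each point 1 gene, coloured by its call; the bar is the list's median). In U251 the medians are 0.20 for the regulators, 0.37 for the other NRF2-controlled genes, 0.03 for NADPH production and 0.12 for thioredoxin and glutaredoxin, and in U87 they are 0.81, 1.08, 0.10 and 0.38 in the same order.

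Of 15 tested genes for NADPH production, 1 rose and 2 fell in U251, and 5 rose and 7 fell in U87, where 29.2% of all tested genes were higher and 29.2% lower. In U251 4.09% of all tested genes were higher and 4.26% lower. TKT, transketolase, rose in U251 (0.41 ± 0.09 SE, adjusted p = 0.014, lost in 5 of 22 alternatives) and had 0.10 ± 0.09 in U87 (SE, adjusted p = 0.37), where the GC adjustment gave 0.65, past the threshold. PGLS, the lactonase that acts before PGD, fell in U87 by 0.92 (SE 0.18, adjusted p = 0.0011) and had 0.22 ± 0.18 in U251 (SE, adjusted p = 0.51), and with the adjustment the U87 value turned to 0.26, not called. IDH1, cytosolic isocitrate dehydrogenase, rose in U87 (1.86 ± 0.11 SE, adjusted p = 2.2e-07) and had -0.03 ± 0.11 in U251 (SE, adjusted p = 0.92), a difference of -1.90 ± 0.16 (SE, adjusted p = 5.8e-06).

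Of 25 tested thioredoxin and glutaredoxin genes, 3 rose and 2 fell in U251, where 4.09% of all tested genes were higher and 4.26% lower, and 13 rose and 9 fell in U87, where 29.2% were higher and 29.2% lower. TXN, thioredoxin itself and the substrate of TXNRD1, rose in U87 (1.72 ± 0.16 SE, adjusted p = 4.3e-06) and had 0.08 ± 0.16 in U251 (SE, adjusted p = 0.83). TXNIP, which binds and inhibits thioredoxin, rose in U251 (1.19 ± 0.10 SE, adjusted p = 3.8e-05) and in U87 (1.13 ± 0.10 SE, adjusted p = 2.4e-06). The U251 minus U87 difference was -1.64 ± 0.23 for TXN (SE, adjusted p = 0.00012) and 0.06 ± 0.14 for TXNIP (SE, adjusted p = 0.75).

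By profile over the 12 libraries, among 9611 candidate genes, NFE2L2 was most like NDUFAF1 (Pearson's r 0.906), EFR3A (0.854) and KRTCAP2 (0.852). With 1 library left out the r ran from 0.860 to 0.925 for NDUFAF1, 0.817 to 0.919 for EFR3A and 0.654 to 0.891 for KRTCAP2, lowest there without U87 control library 1. Of the 12 fits with 1 library left out, the likeness result was kept in all 12 for NDUFAF1, but in 3 for EFR3A and 1 for KRTCAP2. With the GC adjustment the r of EFR3A was 0.686. The mean profile of the 6 tested targets was most like GDF15 (0.974), UPP1 (0.974) and SLC16A1 (0.971). GDF15 rose by 1.88 in U251 and 3.31 in U87, UPP1 by 0.59 in U251 and 0.58 in U87, and SLC16A1 by 0.86 in U251 and 1.07 in U87, all past the threshold. The points of such an r are libraries of the same 4 groups and share their depth and GC bias, so it is a description.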

How the data were processed

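Counts and FPKM of 12 polyadenylated RNA libraries were taken from one table. Per the submitters' processing notes, reads were cleaned with fastp, aligned with HISAT2 2.1.0 to GRCh38, quantified with StringTie 1.3.3b and compared with edgeR 3.30.3. The deposited counts are whole numbers per gene, not normalized by the authors per the file headers, and how they were made is not given in the sources used here. The deposited FPKM equalled the count over library total and a fixed length, to within 0.00387% over 11394 genes with at least 20 counts in every library, so they carry no TMM factor. Among the members low depth limits ME1 only, since 3 counts are the limit that a count of 0 allows. Some markers, such as PECAM1 in U251 and PTPRC in U87, also averaged under 3 counts a library.

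The deposited counts were fitted in R 4.3.3, using edgeR 4.0.16 (filterByExpr, minimum count 10, minimum total 15; TMM; quasi-likelihood, 4 group means, 12 libraries) and limma 3.58.1. Calls used a Benjamini-Hochberg adjusted p below 0.05 over all tested genes, and the SE divides the size of the log2 fold change by the root of F. The fit was tested on simulated data. CPM are counts over library total times TMM factor. Levels between genes use merged exons of GENCODE release 29, whose longest transcripts also gave GC content. The GC adjustment used loess (span 0.3) on GC and length, per library, as offsets. Alternatives were other scalings, DESeq2 1.42.0, no filter, only the compared libraries, limma-trend on log2(FPKM + 1) and log2(FPKM + 0.1), replicate number as a block, and each library left out.

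The members and lists were chosen with earlier results of these data known. Some genes stand in more than 1 list. Named were all 9 members, 11 regulators and enzymes whatever their result, the 4 called genes per direction with the largest change among the other NRF2-controlled genes in each line that averaged 3 or more on the log2 CPM scale, and for NFE2L2 and the mean standardised target profile the 3 genes of most similar log2 CPM (prior count 2). CBR3 was named after its values were seen, being 1 of 2 that fell. Some items of the lists and of this rule are not reported here and were left out of the counts. Promoters are from RefSeq (GRCh38.p14), and all 9 members matched.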

Additional observations from a re-analysis of the deposited data

Results flagged for a closer look

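The effect of artesunate differed between the lines for 4 of the 8 tested members, by an interaction in edgeR's quasi-likelihood test, with Benjamini-Hochberg adjustment over 17150 genes. The U251 minus U87 difference in log2 fold change was -1.45 for NQO1, -2.29 for TXNRD1 and -1.05 for SRXN1, each with the higher value in U87. It was 1.87 for OSGIN1, with the higher value in U251. U251 had 180 µM and U87 had 24.08 µM, and the effects of line and dose cannot be told apart. NQO1, TXNRD1 and SRXN1 kept their call and direction in all 21 alternatives, and OSGIN1 lost its call in the 2 with the GC adjustment. Over all tested genes 49.4% were called in this comparison, and 4 of 8 members is close to that share.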

How the results depend on the processing

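Over the 8 tested members in 5 comparisons, 803 of 872 alternative values kept their direction and side of the threshold, 22 lost the call, 26 gained it and 21 changed sign. Of all genes, 1431 were called in U251 (48.99% of them higher); the number was 2328 with DESeq2, 864 with no filter, 2892 with only the compared libraries, 2154 with limma-trend on log2(FPKM + 1), and 652 to 2582 with 1 library left out (2582 without U87 artesunate library 2). With library totals and no TMM factors, 38.7% of the called genes in U251 were higher. The GC adjustment gave 5113 called differences, and 4727 with the replicate block, against 8477 without it; between treated lines 3 members were called with it, with the block or without, against 5: NQO1 and SRXN1 in the same direction and OSGIN1 in the opposite one. Pairing of artesunate with control libraries by replicate number was not shown, and 3 libraries a group cannot exclude it. Each library's deviations from its group's mean log2 CPM were correlated over genes. For same-numbered libraries the r of these deviations was 0.041, 0.00015 and 0.038 in U251 and 0.053, 0.050 and -0.0086 in U87. Not every library correlated best with its own number. With the replicate block 4 members were called in U251, 6 in U87, 5 for the difference, 7 between controls and 5 between treated lines. Sign changes under other settings than a left-out library were as follows. In U251, with library totals, CUL3 was at -0.023 and ABCC3 at -0.0012; with limma-trend on log2(FPKM + 1) they were at -0.020 and -0.0013, and on log2(FPKM + 0.1) at -0.023 and -0.0013. With the GC adjustment in U251, PGLS was at -0.0013, IDH1 at 0.096 and ABCC3 at -0.15, and with the block added at -0.00014, 0.096 and -0.15. In U87, OSGIN1 was at -0.025 with library totals, -0.0086 with no filter, -0.026 with the replicate block, and -0.13 and -0.16 with limma-trend. With the GC adjustment in U87, KEAP1 was at 0.82, PGLS at 0.26 and ABCC3 at 0.15, and with the block added at 0.83, 0.26 and 0.15. The KEAP1 difference was -0.69 with it and -0.67 with the block. Between treated lines KEAP1 was at -0.15, OSGIN1 at -0.41 and TALDO1 at -0.13, and with the block added at -0.13, -0.39 and -0.13. Leaving out 1 library moved CUL3 over -0.0096 to 0.030, IDH1 over -0.15 to 0.046 and TXN over -0.016 to 0.22 in U251, and OSGIN1 over -0.53 to 0.25 in U87. It moved KEAP1 over -0.065 to 0.29 between controls and TXNRD1 over -0.24 to 0.45 between treated lines. The cause of these changes was not tested.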
